A study of Mus musculus with 85 samples.

Results

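miR-126 is the microRNA of the endothelium, and its locus was described here in the hearts of the Hybrid Mouse Diversity Panel, a collection of inbred mouse strains. The members were the rows of the count table that carry the name miR-126, namely mmu-miR-126a-3p, mmu-miR-126a-5p, mmu-miR-126b-3p and mmu-miR-126b-5p (written without mmu from here on), which are 4 of its 1977 rows. The data were 85 small RNA libraries, 1 per heart, from female mice 16 weeks old. The mice ate chow for their first 8 weeks, and a diet high in fat and sucrose (HF/HS) replaced it for the remaining 8 weeks. All libraries belong to this 1 condition, with no control diet, and the labels do not give the strain of each heart, so the hearts could be described and related to each other but not compared by group. Differences between hearts therefore hold strain, animal and library together, and cannot be told apart.

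A microRNA is cut from a hairpin transcript, and either side of the hairpin, the 5p or the 3p arm, can yield a mature strand that is loaded onto an Argonaute protein and represses messenger RNAs that match its seed, bases 2 to 8. The miR-126 hairpin lies within an intron of Egfl7, a gene for a protein secreted by endothelial cells, and is made largely by that cell type. miR-126a-3p, the mouse form of miR-126-3p, represses Spred1 and Pik3r2, inhibitors of VEGF signalling, and is needed for vascular integrity. The other arm also has endothelial targets, among them Dlk1.

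In GRCm38 the Mir126a hairpin of 73 bases occupies chr2:26591357-26591429 on the plus strand. A second annotated hairpin, Mir126b, of 58 bases, lies on the minus strand at chr2:26591363-26591420 and is the reverse complement of hairpin positions 7 to 64 of Mir126a. Of 9 Egfl7 transcripts that span the locus, 8 hold it in an intron, which most often runs from 26591064 to 26591663. The other, a transcript annotated as retained-intron, holds it in exon 4. The sequences below, from RefSeq (GRCm38.p6), show how the rows lie on each other, and the mature strands have their seeds in capitals. Of the members, 3 had a mature sequence in this table, and miR-126a-5p is named only.
miR-126a-3p (chr2:26591402-26591423, plus strand): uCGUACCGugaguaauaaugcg
miR-126b-5p (chr2:26591399-26591420, minus strand): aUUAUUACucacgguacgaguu
miR-126b-3p (chr2:26591363-26591385, minus strand): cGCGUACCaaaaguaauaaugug
Mir126a hairpin with miR-126a-3p in capitals: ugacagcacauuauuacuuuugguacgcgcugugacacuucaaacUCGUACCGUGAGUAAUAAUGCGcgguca
Mir126a hairpin with the stretch opposite miR-126b-3p in capitals: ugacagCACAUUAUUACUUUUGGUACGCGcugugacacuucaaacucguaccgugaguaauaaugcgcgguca

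miR-126b-3p thus lies opposite the 5p side of the Mir126a hairpin, at its positions 7 to 29, and miR-126b-5p lies opposite the 3p side, where it shares 19 positions with miR-126a-3p. None of the seeds in capitals above was the seed of any other of the 1679 mature mouse miRNAs in the same table. The counting strand setting is not given in the sources used here, so a count in a miR-126b row may come from a read of either strand.

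Library totals ran from 1457 to 30202 miRNA counts, with a median of 12248. The first principal component of the other miRNAs held 74.9% of their variance and split the libraries into set A of 58 and set B of 27, with the 27 in 4 runs of neighbouring library numbers (1 to 10, 15 to 18, 20 and 21, and 49 to 59). The sets were defined from the data and are not conditions, so they were not tested against each other, and relations between miRNAs are given within each set. Library 14 was the shallowest, with 1457 counts, and no pair of libraries agreed within sampling noise. The labelled tissue matched its markers: the 5 cardiomyocyte miRNAs listed made up 17.6% to 24.2% of the counts in set B and 18.5% to 29.2% in set A.

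The 4 rows together held 97538 of 1142199 counts, 8.54% of all miRNA counts in these hearts. miR-126a-3p was the third most abundant row, with 65803 counts. Its share of a library was 3.47% in library 18, the lowest, 5.76% at the median and 7.85% in library 12, the highest. miR-126b-3p, the row annotated on the opposite strand, was the tenth most abundant with 23983 counts. Its share ran from 0.701% in library 9 over a median of 2.07% to 3.41% in library 48. miR-126a-5p, the 5p arm of the Mir126a hairpin, came after them with 6621 counts, from 0.218% in library 9 over a median of 0.590% to 0.886% in library 48. miR-126b-5p had 1131 counts, with a median share of 0.0994% and a highest of 0.163% in library 23. It had no count in library 14, where 0 of 1457 counts allows a share of up to 0.206%, and more than 3 counts in 81 of 85 libraries. The order miR-126a-3p, miR-126b-3p, miR-126a-5p held in 85 of 85 hearts. In whole heart tissue, fewer endothelial cells and less RNA per cell cannot be told apart.

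**Figure D1:**
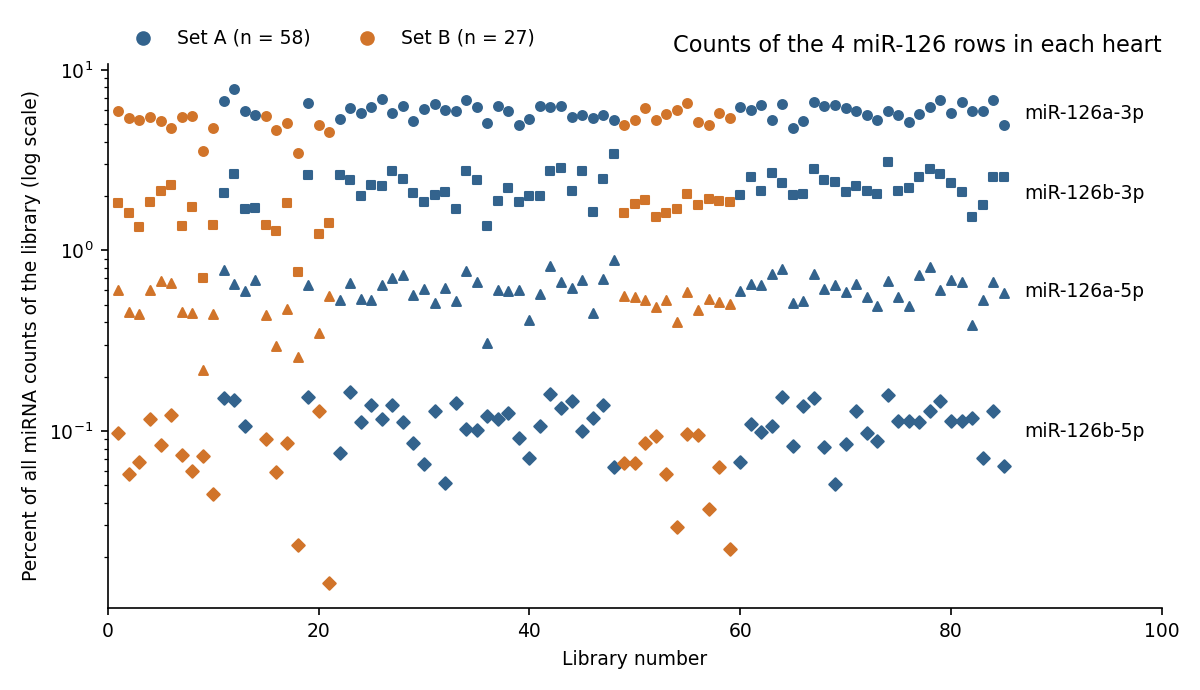
Share of each library's miRNA counts (vertical axis, percent, log scale) held by miR-126a-3p, miR-126b-3p, miR-126a-5p and miR-126b-5p in each of 85 hearts, by library number. Each symbol is 1 library, in blue for set A and orange for set B, and the library with no miR-126b-5p count is not drawn. The bands of miR-126a-3p, miR-126b-3p and miR-126a-5p keep their order in every library, and the lowest symbols of these bands are orange, in libraries 9 and 18.

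The hearts differed in all 4 rows by more than counting error over the 85 libraries, by a chi-square test of each row's counts against the library totals. The chi-square per degree of freedom, which is near 1 where only counting error is at work and which grows with depth, was 10.3 for miR-126a-3p, 3.44 for miR-126a-5p, 13.9 for miR-126b-3p and 1.59 for miR-126b-5p (84 degrees of freedom each). For miR-126b-5p it was 1.11 within set A (p = 0.257) and 1.35 within set B (p = 0.108), which leaves no excess over counting error that could be detected at this depth within a set. On the log2 scale of TMM-normalised counts scaled to the library total (CPM), miR-126a-3p had a median of 15.85 with an SD of 0.30 over the 85 hearts. miR-126a-5p had a median of 12.57 (SD 0.42) and miR-126b-3p a median of 14.41 (SD 0.48). Within set A the SD of miR-126a-3p, 0.16, was the smallest of 51 miRNAs that passed the filter on low counts. It ranked 9 from the smallest of the 51 in set B, with an SD of 0.25, and the SD of a row depends on its abundance.

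The median shares stood lower in set B for all 4 rows. miR-126a-3p had a median of 5.95% in set A against 5.26% in set B, and miR-126b-3p had 2.25% against 1.70%. miR-126a-5p had 0.622% and 0.483%, and miR-126b-5p had 0.113% and 0.0671%. The ranges of the sets overlapped for every row, with 7 of 58 set A libraries below the set B median for miR-126a-3p. Listed miRNAs of the endothelium and of some other cell types differed between the sets too, in either direction. The sets were defined from miRNAs that passed the filter, listed ones among them, so a difference in those was partly built in. Summed smooth muscle miRNAs had medians of 4.05% in set B and 4.01% in set A, and erythroid miRNAs 0.342% and 0.348%. The summed share of the 22 endothelial and angiogenesis miRNAs, which do not include miR-126, was the higher in set B. Its median was 3.04% (2.46% to 4.17%) against 2.43% (1.10% to 3.34%) in set A. Single members went either way: medians in set B against set A were 0.520% and 0.202% for miR-23a-3p and 0.662% and 0.432% for miR-24-3p. They were 0.0224% and 0.156% for miR-19b-3p and 0.172% and 0.220% for miR-27a-3p. The summed share of 3 fibroblast miRNAs was also higher in set B, at 1.01% to 2.03% against 0.436% to 1.42%. The 4 leukocyte miRNAs summed to 0.349% to 1.03% in set B against 0.686% to 4.20% in set A, which miR-142a-3p carried (medians 0.200% and 1.59%). miR-223-3p, at medians of 0.151% in set B against 0.0716% in set A, and miR-150-5p, at 0.142% against 0.0313%, went the other way. Their part in the level of miR-126 was not tested.

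The arm ratio asks which side of the hairpin is kept, and here it was taken from the Mir126a rows alone. miR-126a-3p exceeded miR-126a-5p in 85 of 85 hearts, with a ratio of summed counts of 9.94, and the 3p arm took 90.9% of what the arms had together (Wilson 95% interval 90.6% to 91.1%, counting error only). Among 61 miRNA names with at least 500 counts over both arms, the lesser arm held 9.14% for miR-126a, the seventh highest share, against a median of 0.576%. The ratio per heart ran from 5.95 in library 48 over a median of 10.1 to 16.5 in library 36. In library 48 the 3p arm had 583 counts and the 5p arm 98, a 3p share of 85.6% (82.8% to 88.0%). In library 36 they had 1125 and 68, a 3p share of 94.3% (92.8% to 95.5%). These libraries were picked as the extremes, and the test over all hearts is the chi-square. The log2 ratio had an SD of 0.28 over hearts where counting error alone gives 0.20, and the ratio varied beyond counting error (chi-square per degree of freedom 2.24, p = 6.52e-10). The same held within set A, at a pooled ratio of 9.71 (2.35, p = 3.66e-08), and within set B, at 10.7 (1.66, p = 0.0187).

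The ratio of miR-126b-3p to miR-126a-5p varied among the 85 hearts by about as much as counting error alone gives. These rows are annotated on opposite strands of the same side of the hairpin. The ratio of summed counts was 3.62, and miR-126b-3p was the higher row in 85 of 85 hearts. Per heart the ratio ran from 2.50 in library 14, where it rests on 25 and 10 counts, over a median of 3.57 to 4.95 in library 22. The log2 ratio had an SD of 0.20, and counting error alone gives 0.21. Over all 85 libraries, this chi-square test detected no variation beyond counting error at this depth (chi-square per degree of freedom 0.913, p = 0.702). This does not show that the ratio is the same in every heart. The test is spread over 84 degrees of freedom and can miss a small difference between the sets. Within set A it was 0.984 (p = 0.509) and within set B 0.521 (p = 0.978). Yet the share of either row moved more than 4-fold between hearts: the highest share was 4.05 times the lowest for miR-126a-5p and 4.86 times for miR-126b-3p. Set A had a pooled ratio of 3.69 and set B one of 3.38, and the share of miR-126b-3p in the pair was 78.7% (78.2% to 79.2%) for set A and 77.2% (76.2% to 78.2%) for set B. These Wilson 95% intervals cover counting error only. They do not overlap, though the lower end for set A, 78.174%, lies close to the upper end for set B, 78.168%. Whether the ratio differs between the sets was not tested.

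**Figure D2:**
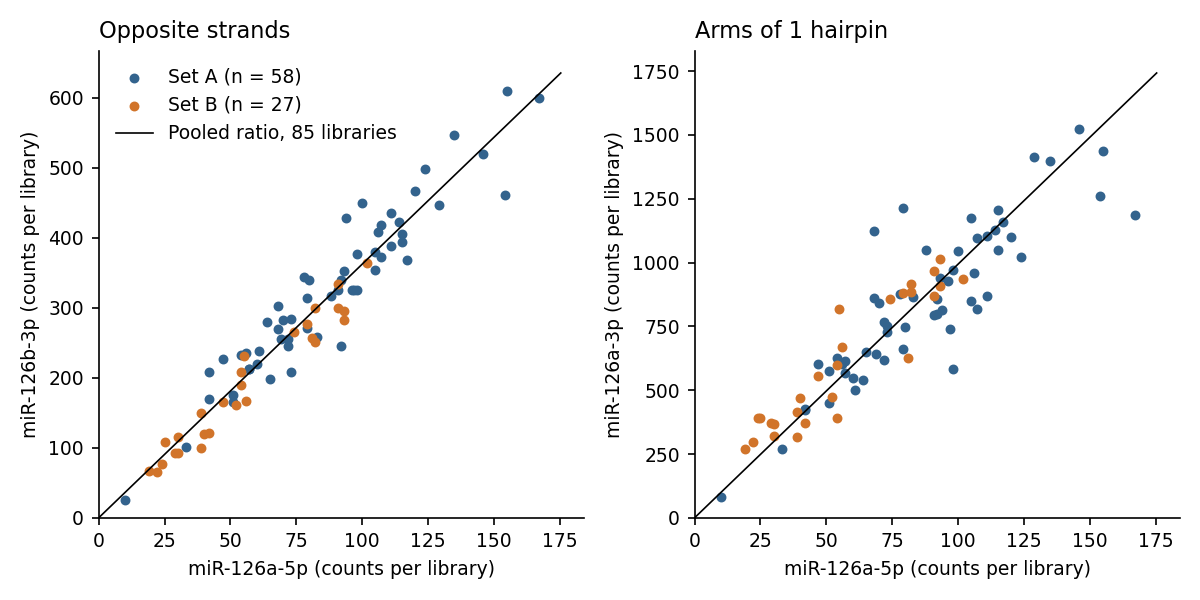
Counts per library of miR-126b-3p (left) and miR-126a-3p (right) against miR-126a-5p, 1 point per heart, with set A in blue, set B in orange and a line at the pooled ratio of the 85 libraries (3.62 and 9.94). The points on the left follow the line closely, and those on the right scatter more widely about it.

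The same test was made between each row and each of the 50 other miRNAs that passed the filter, as a description. For miR-126b-3p no other miRNA gave as low a value as the 0.913 with miR-126a-5p. The next lowest was 1.70, with miR-27a-3p, and the median over the 50 was 14.8. Among miRNAs of other loci with at least as many counts as miR-126a-5p, the lowest was 6.31, with miR-27b-3p. Within a set the values were lower: the lowest of such miRNAs was 2.85 in set A, with miR-26b-5p, and 1.33 in set B, with miR-208a-3p, beside 0.984 and 0.521 for miR-126a-5p. For miR-126a-5p, which has fewer counts, other miRNAs came closer to counting error. There the lowest of another locus was 1.46 over all libraries, with miR-27a-3p, and 1.02 within set B, with miR-30b-5p. In set B 7 of all 50 were under 1.5, with miR-126b-3p among the 7. For miR-126a-3p against miR-126b-3p, which lie on different sides of the hairpin, the pooled ratio was 2.74, from 1.55 in library 48 to 5.06 in library 9, with a chi-square per degree of freedom of 7.80. The size of these chi-squares depends on the counts behind them. The SD of the log2 ratio beyond counting error, which does not, was 0.28 for this pair and 0.19 for the arms of miR-126a.

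**Figure D3:**
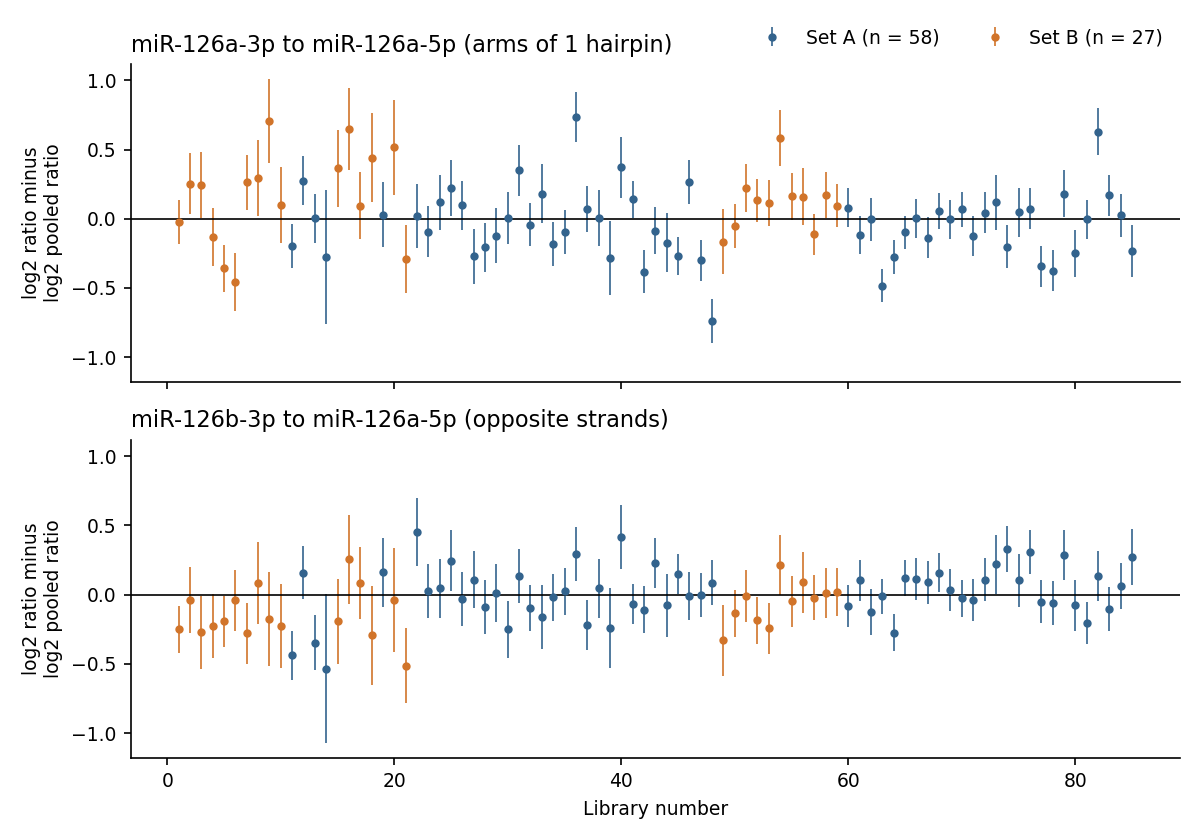
The log2 ratio in each heart minus the log2 pooled ratio, by library number, for miR-126a-3p to miR-126a-5p (top) and miR-126b-3p to miR-126a-5p (bottom), with set A in blue and set B in orange. Bars are 1 standard error from counting alone. At the top, libraries 36 and 48 stand away from 0 by several bars, and at the bottom the SD over hearts, 0.20, is about the counting error of 0.21.

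On the other side of the hairpin, miR-126b-5p amounted to 1.72% of miR-126a-3p. For set A this share was 1.86%, and for set B 1.30%. Over all libraries it varied slightly beyond counting error (chi-square per degree of freedom 1.30, p = 0.0327). Within set A the value was 1.01 (p = 0.462) and within set B 1.31 (p = 0.131), so no excess was detectable within a set. The larger row of a pair was thus the Mir126a arm on the 3p side of the hairpin and the Mir126b row on the 5p side, where miR-126a-5p amounted to 27.6% of miR-126b-3p. With the rows of both strands summed, the 3p side of the hairpin had 66934 counts and the 5p side 30604, a ratio of 2.19 in place of 9.94. Per heart it ran from 1.24 in library 48 to 3.94 in library 9, and it varied beyond counting error (chi-square per degree of freedom 8.23, p = 3.34e-96). This sum was added after the data were seen.

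Rows annotated on opposite strands were found at other loci too. The GENCODE annotation and the RefSeq table together held 35 pairs of precursors that overlap on opposite strands. Among their rows, 15 pairs had counts, of which 4 had at least 500 counts in both rows. Beside the miR-126 pairs these were miR-1a-3p with miR-1b-5p and miR-3074-5p with miR-24-3p. miR-3074-5p, with 989 counts, amounted to 17.3% of miR-24-3p, with 5701. Its chi-square per degree of freedom was 0.853, which is close to that of the miR-126a-5p pair. This value grows with depth, so pairs with unlike counts cannot be ranked by it. miR-1a-3p amounted to 80.5% of miR-1b-5p, and there the value was 17.5, at 202280 and 251291 counts. The row opposite the better known miRNA was therefore not always the smaller one. miR-126b-3p exceeded miR-126a-5p, and miR-1b-5p exceeded miR-1a-3p, the most abundant miRNA of cardiac muscle.

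**Figure D4:**
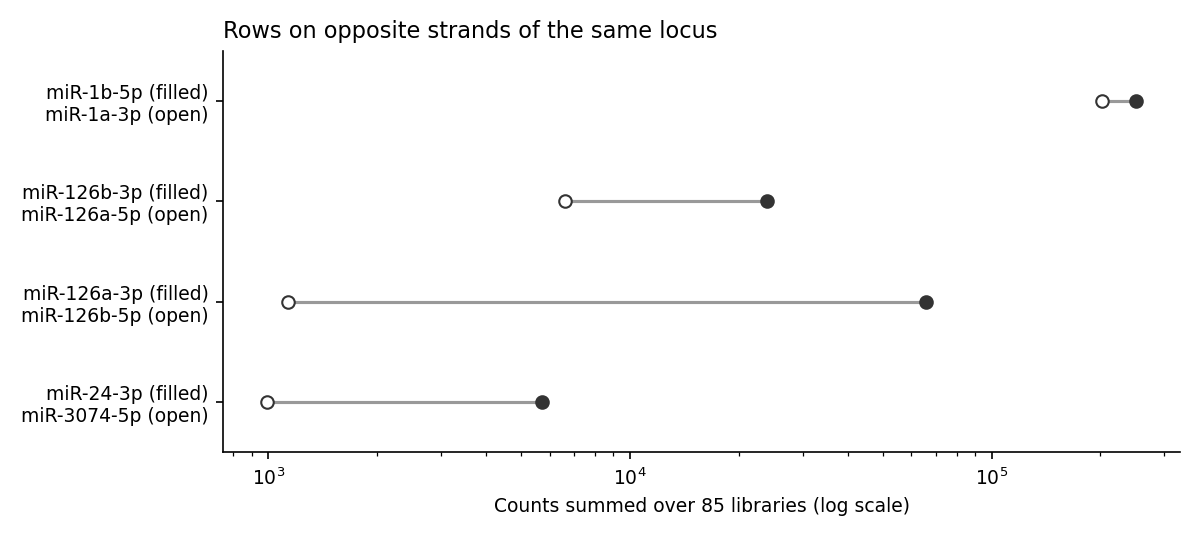
Counts summed over 85 libraries (log scale) for the 4 pairs of rows that lie on opposite strands of a locus and have at least 500 counts each, with the larger row filled and the smaller open. The pairs differ widely in how far the rows stand apart, from 80.5% for miR-1a-3p and miR-1b-5p to 1.72% for miR-126b-5p and miR-126a-3p.

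The rows of the locus were next related to each other over hearts, within each set, on the log2 CPM scale. The 6 relations were tested with 100000 permutations and adjusted together by the Benjamini-Hochberg method. miR-126a-5p and miR-126b-3p had the highest correlation of these in either set. Set A gave a Pearson's r of 0.734 (n = 58, Spearman's rho 0.717), and set B gave 0.899 (n = 27, rho 0.864), each with a permutation p of 1e-05, the smallest that the permutations can give, and an adjusted p of 3e-05. Each of these rows was the one most correlated with the other among 50 miRNAs in either set. Leaving out the 2 libraries that lay farthest from the median level of miR-126a-5p gave 0.697 for set A and 0.802 for set B. The arms of miR-126a had lower values: miR-126a-3p and miR-126a-5p had r = 0.400 in set A (rho 0.452, permutation p = 0.00165, adjusted p = 0.00198), and set B gave 0.609 (rho 0.523, permutation p = 0.00103, adjusted p = 0.00154). Without the 2 farthest libraries these were 0.416 and 0.563. miR-126a-3p and miR-126b-3p had r = 0.340 in set A (rho 0.284, permutation p = 0.00885, adjusted p = 0.00885), while set B gave 0.744 (rho 0.575, permutation p = 2e-05, adjusted p = 4e-05), and 0.299 and 0.632 without the 2 farthest. In CPM without TMM scaling the relation of miR-126a-3p and miR-126b-3p in set A was lost (r = 0.258, adjusted permutation p = 0.0513). On ranks it was lost there too (rho 0.251, adjusted permutation p = 0.0691). Its rank correlation also missed the threshold without the 2 farthest libraries (rho 0.245, adjusted permutation p = 0.0700). The same held without the shallowest library (rho 0.247, adjusted permutation p = 0.0629). In set B the arms of miR-126a lost their rank correlation in CPM without TMM (rho 0.282, adjusted permutation p = 0.153). Whether the correlations differ between pairs was not tested, and rows with few counts have lower correlations from counting error alone.

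The ratios were also related to depth. Of 4 relations with the log2 library total, none passed after adjustment. The largest was miR-126b-3p to miR-126a-5p in set A (r = 0.261, rho 0.0572, permutation p = 0.0492, adjusted p = 0.169), and it rested on libraries 14 and 39, since without them r was -0.057. The arm ratio of miR-126a had r = 0.230 in set A (permutation p = 0.0847, adjusted p = 0.169), and set B gave -0.110 (permutation p = 0.584, adjusted p = 0.584). None of 4 relations with the library number, added after the data were seen, passed either, with the lowest adjusted permutation p at 0.326.

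miR-126a-3p was then related to each of the 50 other miRNAs that passed the filter. In set A, 12 of them passed an adjusted permutation p of 0.05, which is 24% of those tested, with 5 positive and 7 negative. In set B 13 passed, 26% of those tested, and all 13 were positive. Both counts include miR-126a-5p and miR-126b-3p. Apart from the rows of its own locus, the miRNAs most related to miR-126a-3p in set A were miR-24-3p (r = -0.592, rho -0.517, adjusted p = 5e-04), miR-1a-3p of cardiomyocytes (r = 0.511, rho 0.438, adjusted p = 0.001) and let-7c-5p (r = -0.471, rho -0.458, adjusted p = 0.00367), all by permutation over 58 libraries. In set B they were miR-1b-5p (r = 0.726, adjusted p = 0.00117), miR-1a-3p (r = 0.704, adjusted p = 0.00175) and miR-152-3p (r = 0.701, adjusted p = 0.00117), by permutation over 27 libraries. The rows miR-1b-5p and miR-1a-3p lie on opposite strands of a locus. With the strand setting not given, they need not be separate relations. On ranks, miR-1b-5p and miR-1a-3p missed the threshold in set B, with rho of 0.495 and 0.464 (adjusted permutation p = 0.0774 for each). miR-24-3p had r = -0.231 and let-7c-5p r = -0.150 in set B. The calls and some signs depended on scaling: in CPM without TMM no miRNA passed in set A (4 at an unadjusted permutation p under 0.05), and r there was -0.0065 for miR-24-3p, -0.126 for let-7c-5p and -0.121 for miR-1a-3p. In set B 22 passed in that scaling, 12 positive and 10 negative. With DESeq2 size factors 15 passed in set B, 12 positive and 3 negative, and without the filter 9 of 492 passed in set A, all of them positive. Without libraries 18 and 21, the 2 farthest from the median of miR-126a-3p (left out after the data were seen), 6 passed in set B and miR-1a-3p did not (r = 0.50, adjusted permutation p = 0.0728), and without library 14 the count in set A was 7.

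Of 22 miRNAs listed for the endothelium and angiogenesis, 21 had counts and 6 passed the filter. None of the 6 was positively called with miR-126a-3p in set A, where 5 of all 50 tested (10%) were. miR-23a-3p (r = -0.431, rho -0.301, adjusted permutation p = 0.0078), which shares a transcript with miR-27a, and miR-24-3p were negatively related to miR-126a-3p there. This was 2 of 6 called negative, against 7 of 50 (14%) for all miRNAs tested and 12 of 50 in either direction. Whether the list differs from all miRNAs was not tested. The precursors of the miR-24-3p row are Mir24-1 and Mir24-2, so its counts cannot be given to a single cluster. The rank correlation of miR-23a-3p missed the threshold (adjusted permutation p = 0.077), and in CPM without TMM its r was 0.097. In set B only miR-322-5p passed (r = 0.481, rho 0.488, adjusted permutation p = 0.0464), which is 1 of 6 against 13 of 50. That call was lost on ranks (adjusted permutation p = 0.0774), with DESeq2 size factors (r = 0.343, adjusted permutation p = 0.155), in CPM without TMM (0.364, adjusted permutation p = 0.110) and without libraries 18 and 21 (0.423, adjusted permutation p = 0.166). For set A the median r of the list was -0.164, and for set B -0.012, beside medians over all 50 of -0.052 and 0.149. miR-27b-3p, whose cluster holds miR-23b and Mir24-1, gave r = 0.141 for set A and 0.288 for set B, and neither passed (adjusted permutation p = 0.522 and 0.267).

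Markers of other heart cells showed no common direction. Of 4 cardiomyocyte miRNAs that passed the filter, miR-1a-3p was positively related to miR-126a-3p in both sets and miR-499-5p in set B alone (r = 0.484, adjusted permutation p = 0.0464), while miR-133a-3p had r = -0.263 and -0.207 and passed in neither. The call of miR-499-5p was lost on ranks (adjusted permutation p = 0.145), in the partial correlation given the log2 total and library number (adjusted permutation p = 0.0563) and without libraries 18 and 21 (adjusted permutation p = 0.166). miR-199a-3p, of fibroblasts, was negatively related in set A (r = -0.387, adjusted permutation p = 0.0148) but had r = 0.153 in set B. Its sign in set A turned in CPM without TMM, where r was 0.044, and the call was lost in the partial correlation (r = -0.287, adjusted permutation p = 0.0948) and without library 14 (r = -0.336, adjusted permutation p = 0.0609). The smooth muscle miRNAs miR-143-3p and miR-145a-5p, the leukocyte miRNA miR-142a-3p and the erythroid miRNA miR-451a passed in neither set, with r between -0.377 and 0.329.

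**Figure D5:**
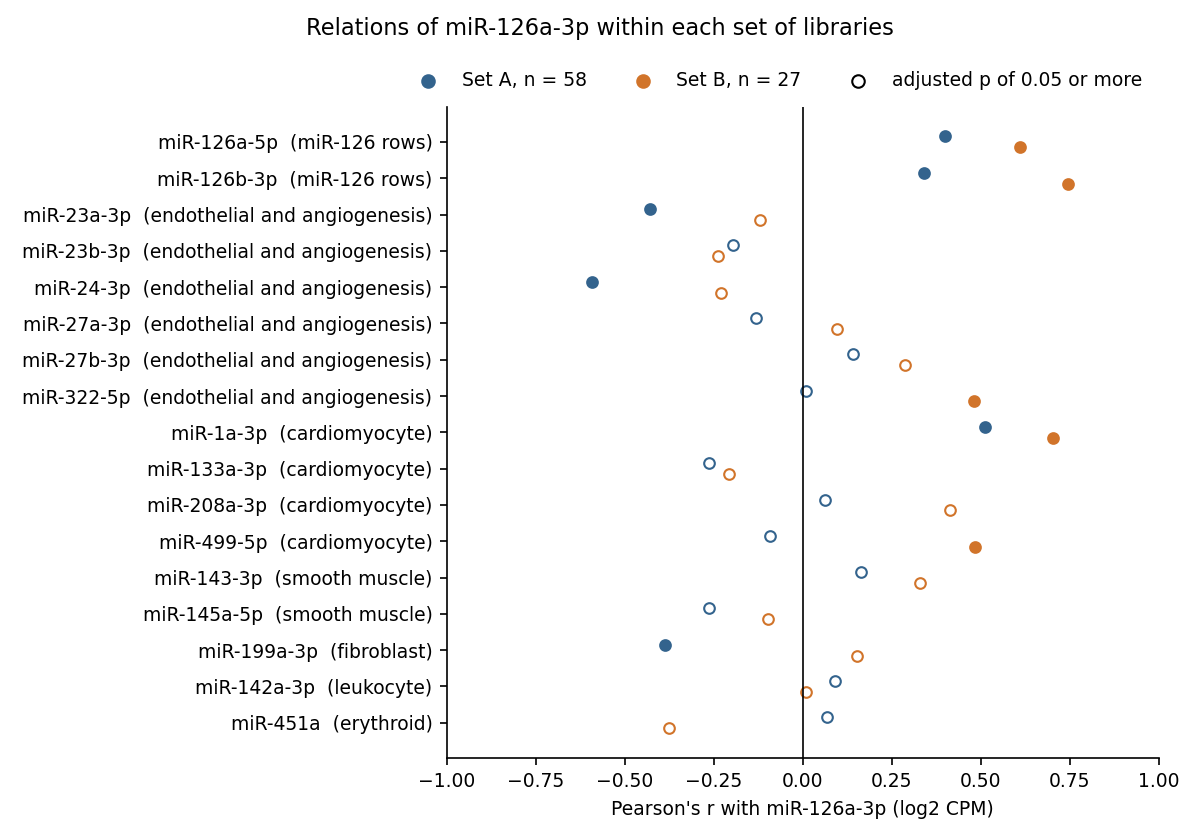
Pearson's r of miR-126a-3p (horizontal axis, log2 CPM) with the other rows of its locus and with the listed miRNAs that passed the filter, in set A (blue, 58 libraries) and set B (orange, 27 libraries). Filled points have an adjusted permutation p under 0.05. The miR-126 rows are positive and filled in both sets, and miR-24-3p is at -0.592 in set A; in CPM without TMM no point of set A among the listed miRNAs would be filled, and miR-1a-3p, miR-23a-3p and miR-199a-3p change sign there.

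Last, the rows were related to the library number, the number after the S in the library titles. The number before it, taken as that of the animal, rises in the same order. A trend with library number can therefore not be told apart from a trend with animal number. By the quasi-likelihood test of edgeR, adjusted over the 51 miRNAs tested (Benjamini-Hochberg), 3 rows rose with it on the log2 scale: miR-126a-3p by 0.047 ± 0.012 (SE) per 10 libraries (adjusted p = 0.000277), miR-126a-5p by 0.062 ± 0.017 (adjusted p = 0.000702) and miR-126b-3p by 0.086 ± 0.018 (adjusted p = 2.45e-05). The background was large: 44 of 51 miRNAs tested passed, or 86.3%, with 41.2% rising. The slope went with the sets, since with set as a covariate miR-126a-3p had a slope of 0.013 and miR-126a-5p one of 0.016 (edgeR adjusted p = 0.233 and 0.351). miR-126b-3p still passed at 0.034 (edgeR adjusted p = 0.0306), where 66.7% of the miRNAs passed and 29.4% passed rising. Within set A miR-126b-3p was again the member that passed (0.038, edgeR adjusted p = 0.0271), where 49% of the miRNAs passed and 19.6% passed rising. Within set B no member passed, where 35.3% of the miRNAs did and 15.7% did so rising. In CPM without TMM, 86.3% passed and 29.4% passed rising, and miR-126b-3p alone of the members was among them (0.055, edgeR adjusted p = 0.00108). What the library number or the animal number stands for is not given in the labels.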

How the data were processed

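Total RNA from 85 hearts had been made into libraries with the QIAseq miRNA kit and sequenced in single 50 base reads. The authors deposited 1 table of raw read counts per mature miRNA. HISAT2 2.0.6 and HTSeq 0.13.5 are named in the submitters' processing notes, with the build mm10; the strand setting, the miRNA annotation and the use of molecular identifiers are not given in the sources used here. Totals were 1457 to 30202 counts, which limits rare rows most; intervals and floors cover counting error only.

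Rows with at least 10 counts in enough libraries (edgeR 4.0.16, filterByExpr, 63 libraries) numbered 51 of 548 with counts and held 95.7% of them; miR-126b-5p was not among them. Log2 CPM used TMM factors and a prior count of 2. Trends used edgeR's quasi-likelihood test, with DESeq2 1.42.0 as an alternative, and relations used 100000 two-sided permutations. Ratios were tested by chi-square on counts. Alternatives were other scalings, no filter, another prior count, deeper libraries, partial correlations, leaving out far libraries and fits within or across the sets. The scripts were tested on simulated data. Named miRNAs were the miR-126 rows, the listed miRNAs that passed the filter and the 3 with the largest absolute r in each set. The members, lists and tests were chosen with earlier results of these data known.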

Additional observations from a re-analysis of the deposited data

How the results depend on the processing

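With the rows of both strands summed the arm ratio was 2.19. Within sets A and B, miR-126b-5p to miR-126a-3p gave a chi-square per degree of freedom of 1.01 and 1.31, neither beyond counting error. CPM without TMM took miR-126a-3p with miR-126b-3p in set A to r = 0.258. On ranks that relation missed the threshold in this scaling (rho 0.251), as did miR-126a-3p with miR-126a-5p in set B (rho 0.282). The relation of miR-126b-3p to miR-126a-5p with depth in set A turned to r = -0.057 without libraries 14 and 39, and that of the arm ratio was -0.052 against library number; neither passed in any setting. The miRNAs related to miR-126a-3p in set A numbered 0 in CPM without TMM (permutation test, 4 unadjusted) and 7 in deeper libraries, and in set B 22 and, without libraries 18 and 21, 6. In CPM without TMM r in set A turned to -0.121 for miR-1a-3p, 0.097 for miR-23a-3p and 0.044 for miR-199a-3p. Calls of single miRNAs with miR-126a-3p were lost 10 times more: in set A for miR-24-3p (r = -0.0065) and let-7c-5p (-0.126) in CPM without TMM and for miR-199a-3p in the partial correlation (-0.287) and deeper libraries (-0.336), and in set B for miR-322-5p with DESeq2 size factors (0.343), in CPM without TMM (0.364) and without the far libraries (0.423), for miR-499-5p in the partial correlation (0.445) and without the far libraries (0.422), and for miR-1a-3p without the far libraries (0.50). The slopes of miR-126a-3p and miR-126a-5p with library number were 0.016 and 0.029 in CPM without TMM, 0.013 and 0.016 with set as a covariate, 0.015 and 0.022 within set A and 0.0092 and 0.0028 within set B, none past the threshold; that of miR-126b-3p was 0.023 within set B. The number of miRNAs with a slope was 99 without the filter, where 548 were tested, 25 within set A and 18 within set B, which hold fewer libraries. The causes of the other changes were not tested. No paired analysis was possible because the libraries form 1 group. Of the rest, 116 main values and 47 values of single miRNAs were rated as unchanged. For a tested value, with correlations taken as Pearson's r, this meant the same direction and the same side of the threshold. For a level or pooled ratio it meant a shift smaller than the SD over hearts. A number of miRNAs called could still move, as from 12 to 8 in set A in the partial correlation.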
